A study of Mus musculus with 9 samples.

Results

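Collagens are secreted or membrane-bound proteins built from triple helices, and the types outside the fibrillar group link, anchor or coat other parts of the matrix. The 9 chains described here are Col6a1, Col6a2, Col6a3, Col7a1, Col8a1, Col8a2, Col12a1, Col16a1 and Col23a1. They were chosen by name as the listed chains of collagen types VI, VII, VIII, XII, XVI and XXIII, a rule that uses no measured value, although earlier results of these data were known when it was set, and are 9 of the 25239 genes in the table. All 9 had a mean of at least 1 FPKM (fragments scaled by gene length and by library total) over the 9 libraries and so entered the tests.

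The products of Col6a1, Col6a2 and Col6a3 join in a single heterotrimer of collagen VI, which assembles into the beaded microfibrils found between cells and interstitial matrix. Collagen VII forms anchoring fibrils that tie a basement membrane to the stroma beneath it. Collagen VIII is a short-chain collagen whose chains build hexagonal networks, best known from Descemet's membrane of the cornea and from vessel walls. Collagens XII and XVI are fibril-associated collagens with interrupted triple helices, which sit on the surface of other matrix fibrils, and collagen XXIII is a transmembrane collagen whose ectodomain can be shed. In the brain, interstitial collagens are largely restricted to meninges and vessels, while cultured astrocytes also make matrix proteins.

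RNA was sequenced from primary cortical astrocytes of mouse pups at postnatal day 4. The first group was exposed to 200 µM hydrogen peroxide (H2O2, an oxidant) for 3 h and harvested 24 h after it was washed off (day 1), and the second had the same exposure and was harvested after 72 h (day 3). The third group was the untreated control, whose time of harvest the labels do not give. Each group has 3 libraries. The labels write the dose unit with a small m, name no strain, and leave unsaid if the replicates of a group were separate cultures or animals. The p-values therefore measure only how far these libraries differ, and that spread may be technical. Such cultures are a mixture, and in bulk RNA fewer cells of a type and less RNA per cell cannot be told apart.

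The start regions of the genes are shown because the chains changed to very different degrees and in both directions. RefSeq (GRCm38.p6) held windows from 250 bases before to 50 after the annotated start for 8 of the 9 genes, with 9 windows in all because Col6a2 has 2 of them. The 5 windows printed here, 5′ to 3′ on the gene's own strand, are those of a moderately rising collagen VI chain (Col6a1, chr10:76725995-76726294, minus strand), of the 2 chains with the largest rise (Col6a3, chr1:90843922-90844221, minus strand, and Col7a1, chr9:108953336-108953635, plus strand) and of both collagen VIII chains, which moved in opposite directions (Col8a1, chr16:57754688-57754987, minus strand, and Col8a2, chr4:126286544-126286843, plus strand). Capitals mark matches to any of 6 motifs on either strand.
Col6a1: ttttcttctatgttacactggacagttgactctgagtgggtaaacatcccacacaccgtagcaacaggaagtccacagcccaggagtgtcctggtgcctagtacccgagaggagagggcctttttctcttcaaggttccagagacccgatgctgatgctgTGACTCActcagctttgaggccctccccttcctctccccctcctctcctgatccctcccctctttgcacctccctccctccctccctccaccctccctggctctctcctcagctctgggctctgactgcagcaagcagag
Col6a3: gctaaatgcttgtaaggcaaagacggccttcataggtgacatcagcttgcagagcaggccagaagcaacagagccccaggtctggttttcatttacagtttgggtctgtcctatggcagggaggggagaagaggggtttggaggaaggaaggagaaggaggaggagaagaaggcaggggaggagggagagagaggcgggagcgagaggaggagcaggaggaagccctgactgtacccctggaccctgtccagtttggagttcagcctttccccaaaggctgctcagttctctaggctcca
Col7a1: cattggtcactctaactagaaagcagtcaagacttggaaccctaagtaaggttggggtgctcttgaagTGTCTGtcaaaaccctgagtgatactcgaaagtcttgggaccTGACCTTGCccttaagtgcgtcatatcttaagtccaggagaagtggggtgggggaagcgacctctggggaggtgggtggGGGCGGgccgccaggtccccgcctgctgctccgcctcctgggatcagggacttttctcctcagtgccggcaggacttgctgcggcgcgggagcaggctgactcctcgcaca
Col8a1: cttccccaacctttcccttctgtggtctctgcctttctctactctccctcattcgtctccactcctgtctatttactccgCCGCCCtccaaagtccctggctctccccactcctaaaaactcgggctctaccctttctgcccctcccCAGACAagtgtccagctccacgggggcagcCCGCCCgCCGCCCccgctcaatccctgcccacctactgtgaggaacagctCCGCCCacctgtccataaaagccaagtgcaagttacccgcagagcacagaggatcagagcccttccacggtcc
Col8a2: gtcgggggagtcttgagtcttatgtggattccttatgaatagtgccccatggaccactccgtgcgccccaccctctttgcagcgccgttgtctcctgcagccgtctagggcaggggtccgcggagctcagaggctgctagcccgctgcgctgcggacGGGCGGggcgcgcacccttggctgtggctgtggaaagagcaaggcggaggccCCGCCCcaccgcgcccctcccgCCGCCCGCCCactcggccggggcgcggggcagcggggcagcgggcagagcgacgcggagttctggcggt

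Each motif was searched on both strands, N stands for any base, and its share is that of all 32851 RefSeq windows of the same length that hold it. The AP-1 motif TGANTCA, present in 7.81% of all windows, occurred in 1 of the 8 genes with a window, at -90 to -84 from the start of Col6a1. The SMAD motif CAGACA, present in 21.0% of all windows, occurred in 2 genes, at -182 to -177 in Col7a1 and at -103 to -98 in Col8a1. The core of the antioxidant response element, TGACNNNGC, present in 12.4% of all windows, occurred at -140 to -132 in Col7a1 and at -72 to -64 in Col6a2, where it overlaps a GC box at -67 to -62. The TEAD motif GGAATG, present in 14.7% of all windows, occurred in 1 gene, Col6a2. The GC box, GGGCGG, was present in 35.7% of all windows and in 6 of the 8 genes, and the windows of Col8a1 and Col8a2 each held 4 matches to it. A pair of those in Col8a2, at -19 to -14 and -15 to -10, overlap each other. The TATA box motif TATAAA, present in 13.6% of all windows, occurred in none of the 8 genes. The window of Col6a3 held no match to the 6 motifs. A match describes letters in the window and says nothing about binding, and a missing match says only that these letters are not in it.

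Library totals ran from 23032594 to 38414668 reads. The day 1 libraries were the shallowest, with totals up to 27850348, against 30278210 or more in the other 6. Across the 9 libraries, Col23a1 had 54 to 380 reads, Col8a2 had 159 to 1001, and each of the other 7 chains had at least 2327. Of 12 astrocyte markers, 11 were at or above a group mean of 1 FPKM in each group. The ribosomal precursor Rn45s held 7.67% to 9.36% of reads in day 1, 9.15% to 11.1% in day 3 and 9.41% to 11.9% in control libraries, and with both libraries of the highest share left out, an alternative chosen after seeing the data, the members' calls were as many as with all libraries.

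Of the 9 chains, 6 were higher and 2 lower in day 1 than in control astrocytes, and 1 was not called (limma, Benjamini-Hochberg adjusted p under 0.05 over all 12611 genes tested). The same test called 62.1% of all genes, 32.4% as higher and 29.7% as lower. Col23a1, 1 of the 2 lower chains, passed the filter of 1 FPKM only through its day 3 and control levels. In day 3 against control, 5 chains were higher, 2 lower and 2 not called, where 14.0% of all genes were called, 7.68% as higher and 6.3% as lower. The median log2 fold change of the members was 0.88 in day 1 and 0.22 in day 3, beside medians of 0.0086 and 0.0085 over all genes tested. The balance over all genes turned with the scaling, while no member's call changed: in day 1 against control, 4084 genes were higher and 3749 lower, but 3319 and 4348 with FPKM as deposited. In day 3 against control, 968 were higher and 794 lower, but 661 and 861 with FPKM as deposited. The 1762 calls became 1170 without control replicate 1, 1042 without day 3 replicate 1 and 1039 without day 3 replicate 3, and the members' counts were then 5 to 6 higher and 2 lower over all fits that left out 1 library. Both comparisons use the same control libraries. All fold changes are on the scale of log2(FPKM + 0.1) after rescaling between libraries, so they can differ slightly from ratios of the deposited FPKM, and they understate the change of the low chains.

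**Figure D1:**
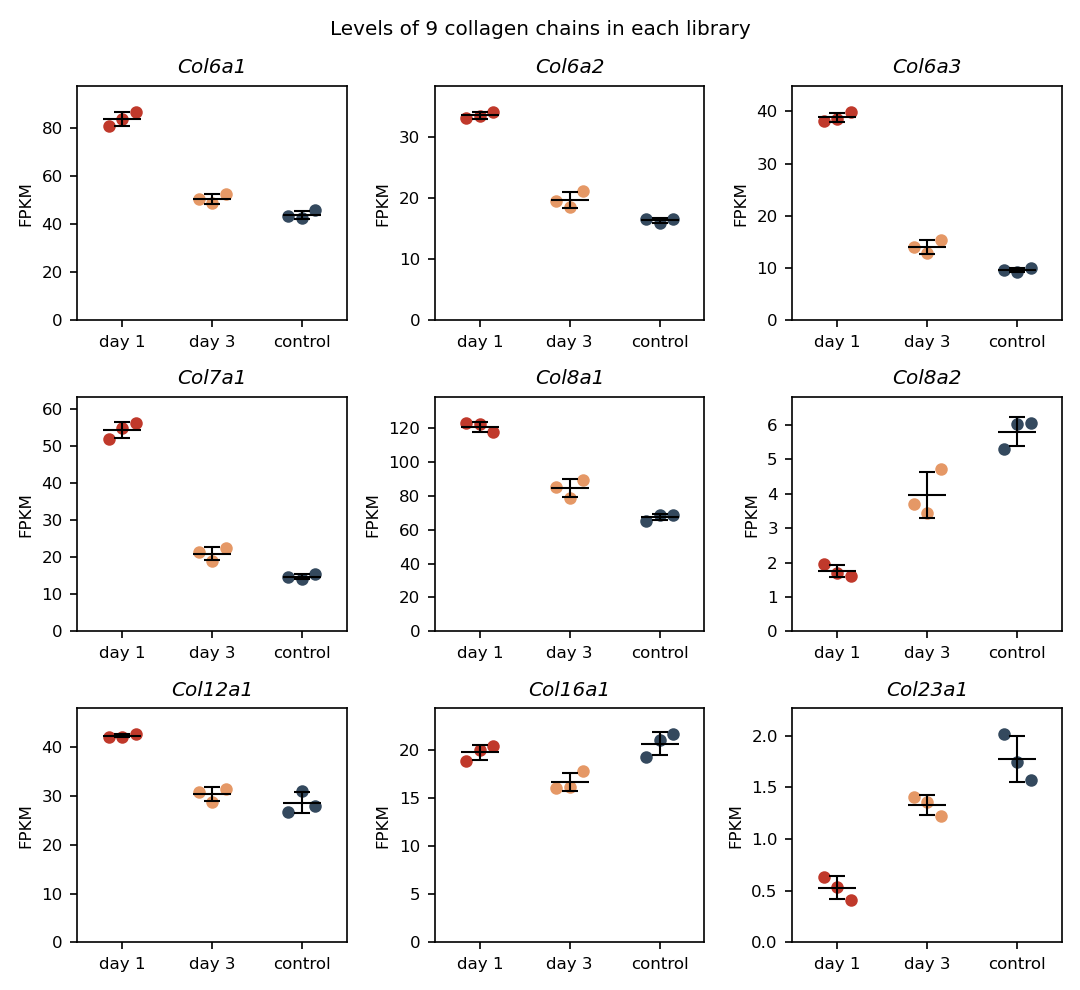
Deposited FPKM of each chain in the 3 libraries of each group (points), with the group mean and SD (bars), each panel on its own axis from 0. The highest day 1 mean among the chains is that of Col8a1 at 121 FPKM and the lowest that of Col23a1 at 0.529 FPKM. Col8a2 and Col23a1 are lowest in day 1, while Col6a1, Col6a2, Col6a3, Col7a1, Col8a1 and Col12a1 are highest there.

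All 3 collagen VI chains were higher in day 1 and in day 3 than in control, and the fold change was largest for Col6a3. Col6a1 (chr10:76708792-76726168, minus strand, 35 exons in its principal transcript; gene positions are from GENCODE M21 on GRCm38) had 81.1, 83.7 and 86.7 FPKM in day 1, 50.4, 48.7 and 52.7 FPKM in day 3, and 43.5, 42.6 and 45.9 FPKM in control libraries. Every day 1 library lay far above the other 6, and every day 3 library just above the control libraries. Its level was 1.96-fold higher in day 1 (95% interval 1.85 to 2.08, adjusted p = 1.78e-08) and 1.16-fold higher in day 3 (1.10 to 1.24, adjusted p = 0.00469) than in control.

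Col6a2, which lies 85161 bases from Col6a1 on the same strand of chromosome 10 (chr10:76595762-76623630, 28 exons), had 33.0, 33.5 and 34.1 FPKM in day 1, 19.5, 18.6 and 21.2 FPKM in day 3, and 16.6, 15.9 and 16.6 FPKM in control libraries. The 3 groups did not overlap. The level was 2.10-fold higher in day 1 (adjusted p = 1.82e-08) and 1.22-fold higher in day 3 (adjusted p = 0.00203) than in control, close to the changes of Col6a1.

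Col6a3 (chr1:90765923-90843971, minus strand, 41 exons) codes for the longest chain of the trimer, whose C-terminal end is released as the fragment endotrophin. It had 38.2, 38.6 and 39.8 FPKM in day 1, 14.0, 12.8 and 15.3 FPKM in day 3, and 9.65, 9.29 and 9.94 FPKM in control libraries. The groups were again apart, and every day 1 library was above every other library. The level was 4.13-fold higher in day 1 than in control (3.80 to 4.49, adjusted p = 2.42e-09), the rank of 21 from the top among the 12611 genes by fold change. In day 3 it was 1.47-fold higher than in control (1.35 to 1.60, adjusted p = 0.000186), at rank 90.

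Since the 3 chains are needed for 1 trimer, their ratios within a library were compared, which removes the scaling between libraries. The size of a ratio or share, here and for collagen VIII, depends on the gene lengths used for FPKM. It is therefore no measure of how many chains of each kind are made, while the fold change of a ratio between groups does not depend on length. The ratio of Col6a3 to Col6a1 averaged 0.464 ± 0.00661 in day 1, 0.277 ± 0.0139 in day 3 and 0.219 ± 0.00262 in control libraries (SD, n = 3 each). It was thus 2.12-fold higher in day 1 and 1.27-fold higher in day 3 than in control, and the groups did not overlap. The ratio of Col6a3 to Col6a2 averaged 1.16 ± 0.00903 in day 1, 0.710 ± 0.0186 in day 3 and 0.587 ± 0.00882 in control libraries. The ratio of Col6a1 to Col6a2 moved little, with 2.50 ± 0.0448 in day 1, 2.56 ± 0.0663 in day 3 and 2.68 ± 0.0679 in control libraries. As a share of the summed FPKM of the 3 chains, Col6a3 made up 24.9% ± 0.183 in day 1, 16.6% ± 0.598 in day 3 and 13.7% ± 0.0730 in control libraries, while the sum itself was 156 ± 4.17, 84.4 ± 4.57 and 70.0 ± 2.32 FPKM in day 1, day 3 and control.

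With 3 libraries a group, the smallest p an exact two-sided permutation test can give is 0.1. Of 12 comparisons (3 collagen VI ratios and 1 collagen VIII ratio, each in 3 contrasts), 11 had groups apart and reached that p of 0.1 (0.109 after adjustment over the 12). Groups that are apart always give this p, and the 12 share chains and libraries, so they are not independent. Among single genes tested, groups were apart for 66.1% in day 1 and 30.3% in day 3 against control, and 61.8% in day 3 against day 1. The share for ratios of other gene pairs was not determined. The exception was Col6a1 to Col6a2 in day 3 against day 1, where the groups overlapped (exact permutation p = 0.3).

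**Figure D2:**
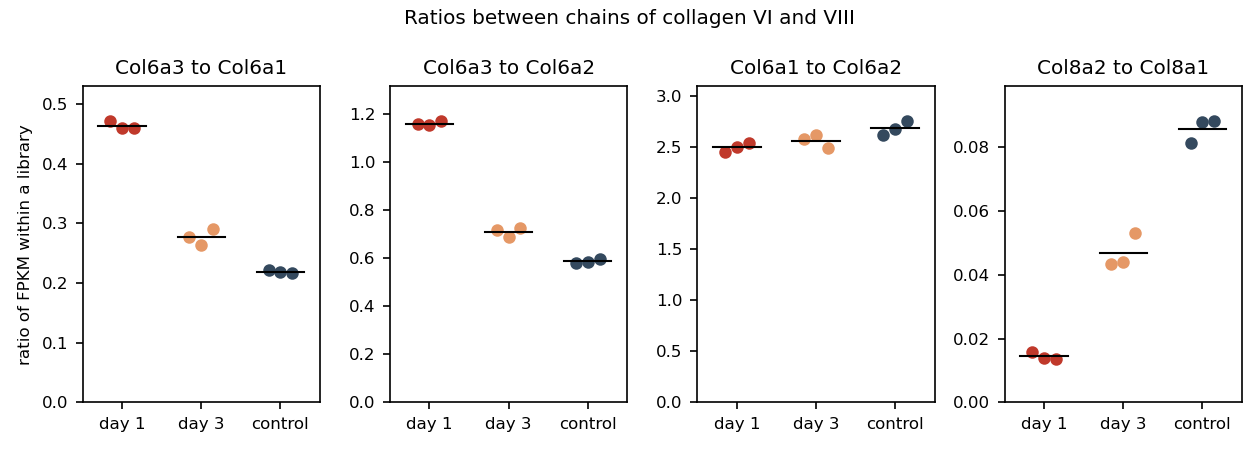
Ratio of FPKM between 2 chains within each library (points) and the group mean (line), for 3 pairs of collagen VI chains and for Col8a2 to Col8a1, each axis from 0. Col6a3 to Col6a1 averages 0.464 in day 1 and 0.219 in control, Col6a1 to Col6a2 stays between 2.45 and 2.75 in all libraries, and Col8a2 to Col8a1 averages 0.0144 in day 1 and 0.0858 in control.

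Col7a1, the sole chain of collagen VII, changed nearly as much as Col6a3. The gene (chr9:108953586-108984875, plus strand) has 119 exons in its principal transcript, and the microRNA gene Mir711 shares 36 exonic bases with it at no more than 0.515 FPKM. It had 51.8, 54.9 and 56.2 FPKM in day 1, 21.3, 19.1 and 22.4 FPKM in day 3, and 14.8, 14.1 and 15.5 FPKM in control libraries. All 3 groups were apart, with the lowest day 1 library above every day 3 library by more than the whole spread of any group. The level was 3.77-fold higher in day 1 than in control (3.46 to 4.10, adjusted p = 3.46e-09, rank 33 from the top) and 1.43-fold higher in day 3 (1.31 to 1.56, adjusted p = 0.000307, rank 110).

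The collagen VIII chains moved in opposite directions. Col8a1 (chr16:57624258-57754737, minus strand, 4 exons) had 123, 122 and 117 FPKM in day 1, 85.2, 78.5 and 89.0 FPKM in day 3, and 65.2, 68.5 and 68.5 FPKM in control libraries. In deposited FPKM it had the highest level of the 9 chains in every group, a place that can depend on the gene length used. Its groups did not overlap. Its level was 1.84-fold higher in day 1 (1.75 to 1.95, adjusted p = 1.72e-08) and 1.26-fold higher in day 3 (1.20 to 1.34, adjusted p = 0.000252) than in control.

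Col8a2 (chr4:126286793-126314330, plus strand, 4 exons), the partner chain, had 1.94, 1.70 and 1.59 FPKM in day 1, 3.71, 3.45 and 4.72 FPKM in day 3, and 5.31, 6.02 and 6.05 FPKM in control libraries. The day 1 libraries were all under 2 FPKM, the control libraries all above 5, and the day 3 libraries lay between them without overlap. The level was 3.11-fold lower in day 1 than in control (2.63 to 3.67, adjusted p = 4.37e-07), at rank 48 from the bottom of all genes tested. In day 3 it was 1.44-fold lower than in control (1.22 to 1.70, adjusted p = 0.00932).

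The ratio of Col8a2 to Col8a1 averaged 0.0144 ± 0.00120 in day 1, 0.0468 ± 0.00537 in day 3 and 0.0858 ± 0.00385 in control libraries (SD, n = 3 each). It was 5.95-fold lower in day 1 and 1.84-fold lower in day 3 than in control, with no overlap between groups. With a pseudocount of 1 added to both chains, the log2 difference of the ratio in day 1 against control was -2.14 in place of -2.57.

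Of the fibril-associated chains, Col12a1 (chr9:79598991-79718831, minus strand, 66 exons) had 42.2, 42.1 and 42.7 FPKM in day 1, 30.8, 28.9 and 31.5 FPKM in day 3, and 26.8, 31.1 and 28.0 FPKM in control libraries. Day 1 stood apart from both other groups, while day 3 and control overlapped. It was 1.52-fold higher in day 1 than in control (1.42 to 1.63, adjusted p = 1.13e-06). In day 3 the log2 fold change against control was 0.11 (0.0040 to 0.21, adjusted p = 0.162), which was not called. Without control replicate 2, the highest control library, it was 0.16 (adjusted p = 0.0238), and limma-voom on recovered reads also called it (adjusted p = 0.0483).

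Col16a1 (chr4:130047840-130099283, plus strand, 70 exons) had 18.9, 20.02 and 20.4 FPKM in day 1, 16.1, 16.2 and 17.8 FPKM in day 3, and 19.3, 21.0 and 21.6 FPKM in control libraries. Day 1 and control overlapped, and day 3 was below both. The log2 fold change in day 1 against control was -0.02, with a 95% interval of -0.13 to 0.09 (adjusted p = 0.736), while in day 3 the level was 1.22-fold lower than in control (1.13 to 1.32, adjusted p = 0.0039). Col16a1 was the only one of the 9 chains with day 3 outside the range between the day 1 and control means.

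The transmembrane chain gene Col23a1 (chr11:51289920-51583918, plus strand, 29 exons) had 0.634, 0.539 and 0.414 FPKM in day 1, 1.41, 1.36 and 1.22 FPKM in day 3, and 2.02, 1.75 and 1.57 FPKM in control libraries. It was the lowest of the 9 chains in each group, and its groups did not overlap. Its mean was 0.529 FPKM in day 1, 1.33 FPKM in day 3 and 1.78 FPKM in control. Col23a1 thus passed the filter of 1 FPKM only through its day 3 and control levels, which favoured its place among the falls in day 1. The level was 2.93-fold lower in day 1 than in control (2.31 to 3.71, adjusted p = 8.68e-06), a log2 fold change of -1.55 that was -0.84 with a pseudocount of 1 (adjusted p = 7.12e-06). In day 3 the log2 fold change against control was -0.37 (-0.71 to -0.03, adjusted p = 0.145), which was not called, although limma-voom on recovered reads called it at -0.39 (adjusted p = 0.00659).

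**Figure D3:**
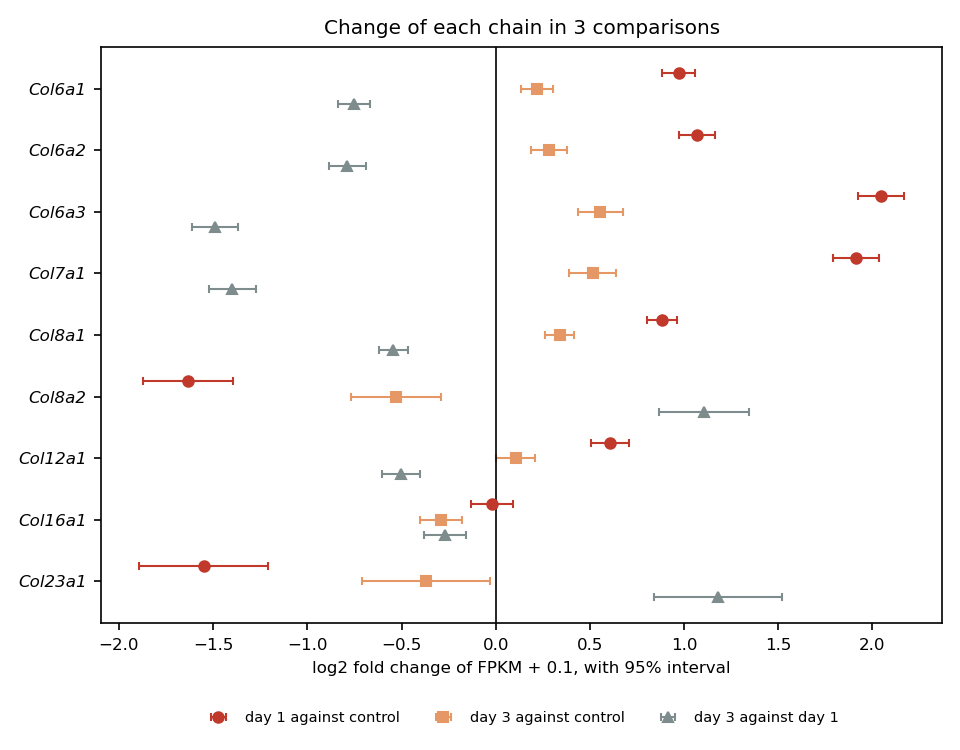
Log2 fold change of each chain with its 95% interval in day 1 against control, day 3 against control and day 3 against day 1, from the fit over all 9 libraries. Col6a3 and Col7a1 lie farthest to the right in day 1 against control at 2.05 and 1.91, Col8a2 and Col23a1 farthest to the left at -1.64 and -1.55, and Col16a1 lies at -0.02.

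The groups did not overlap for 8 of the 9 chains in day 1 against control, where this held for 66.1% of all genes tested, and for 8 in day 3 against control, where it held for 30.3%. Among all 12611 genes in day 1 against control, Col6a3 and Col7a1 lay in the upper tail, at ranks 21 and 33 from the top. Col8a2 and Col23a1 lay in the lower tail, at ranks 48 and 69 from the bottom. The rank of Col23a1 is no separate support for its fall, because it passed the filter only through its day 3 and control levels.

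**Figure D4:**
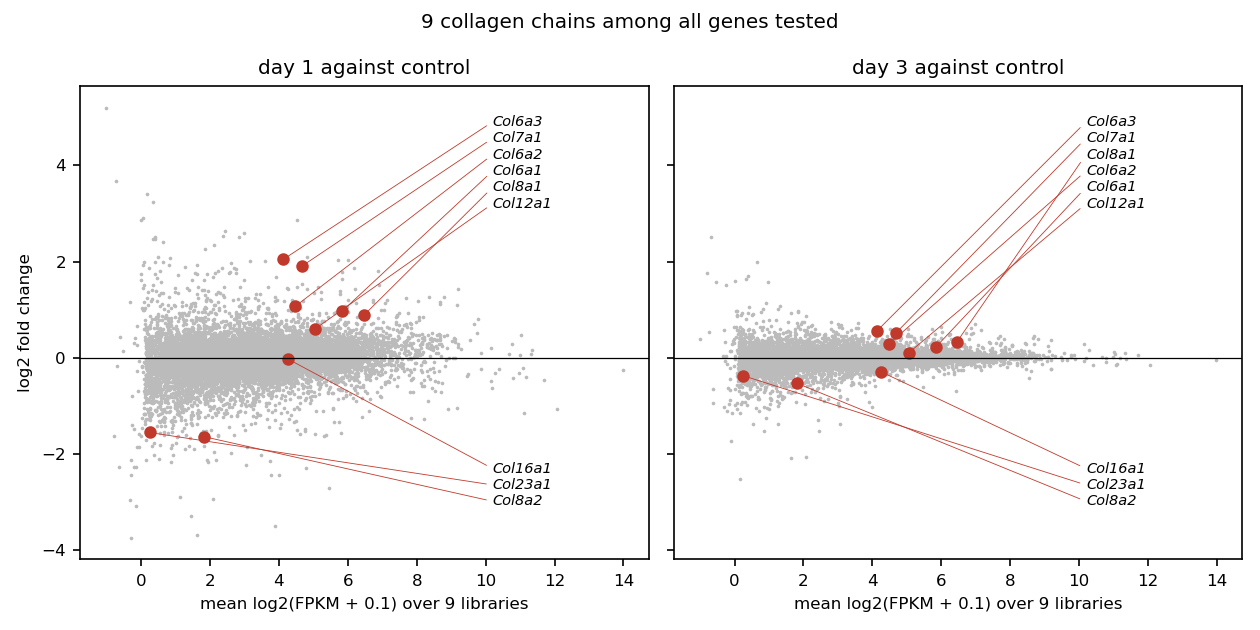
Log2 fold change against the mean log2(FPKM + 0.1) over 9 libraries for all 12611 genes tested (grey) and the 9 chains (red, named), in day 1 against control and day 3 against control. Col6a3 stands at 2.05 and 0.56, and Col8a2 at -1.64 and -0.53, in the 2 panels in that order.

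Day 3 was then compared with day 1 directly. Of the 9 chains, 7 were lower and 2 higher in day 3 than in day 1, where 56.0% of all genes were called, 26.6% as higher and 29.4% as lower. With FPKM as deposited, this balance turned to 3693 genes higher and 3187 lower, against 3358 higher and 3710 lower after rescaling. Col6a3 was 2.81-fold lower in day 3 than in day 1 (adjusted p = 2.23e-08) and Col7a1 was 2.63-fold lower (adjusted p = 3.45e-08). Col6a1, Col6a2, Col8a1 and Col12a1 had log2 fold changes of -0.75, -0.79, -0.54 and -0.50, and Col16a1 was 1.20-fold lower (adjusted p = 0.000994). Col8a2 was 2.15-fold higher in day 3 than in day 1 (adjusted p = 1.1e-05) and Col23a1 was 2.27-fold higher (adjusted p = 8.68e-05). The groups did not overlap for any of the 9 chains, against 61.8% of all genes tested, and the median log2 fold change of the members was -0.54, beside -0.0066 over all genes tested.

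The order of the levels, which are per length, differed between groups. In day 1 it ran Col8a1, Col6a1, Col7a1, Col12a1, Col6a3, Col6a2, Col16a1, Col8a2 and Col23a1 from the highest to the lowest. In day 3 it ran Col8a1, Col6a1, Col12a1, Col7a1, Col6a2, Col16a1, Col6a3, Col8a2 and Col23a1. In control it ran Col8a1, Col6a1, Col12a1, Col16a1, Col6a2, Col7a1, Col6a3, Col8a2 and Col23a1. The library values of neighbours in these orders did not overlap, except those of Col7a1 and Col6a2 in day 3. The smallest gene lengths that fitted the deposited values were 6014 bases for Col6a2, 10841 bases for Col6a3 and 2555 bases for Col8a1. A whole multiple of each would also fit. Their principal transcripts in GENCODE M21 have 3949, 9001 and 5108 bases in the same order. The place of a chain in these orders can thus depend on the length used, while comparisons between groups do not.

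Likeness between genes was measured as the root mean square difference of their log2 values over the 9 libraries, each gene centred on its control mean. Col6a3 and Col7a1, which lie on different chromosomes, differed by 0.0836, and each ranked 2 among all tested genes by closeness to the other. Col6a1 and Col6a2 differed by 0.0736, Col6a1 and Col8a1 by 0.100, and Col8a2 and Col23a1 by 0.233. Col6a3 differed from its partner chains Col6a1 and Col6a2 by 0.651 and 0.585, yet these ranked 184 and 155 among all tested genes by closeness to Col6a3. At its smaller difference, Col6a2 ranked 24 by closeness to Col6a1, and Col6a1 ranked 12 by closeness to Col6a2. A difference of a given size thus stands for a different rank from gene to gene. These figures describe only 9 libraries, and the depth and scaling of each library are shared by all genes in it.

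Outside the 9 chains, the gene nearest to Col6a3 was Timp1, an inhibitor of matrix metalloproteinases, at 0.0628. The nearest to Col7a1 were Unc5b, a netrin receptor, at 0.0823 and Thbs2, which codes for thrombospondin-2, at 0.0933. Col6a2 lay nearest to Plod2, which codes for a lysyl hydroxylase acting on collagen, at 0.0245, and then to Ptprn at 0.0480. Col6a1 lay nearest to Jph2 at 0.0340 and Tpm1 at 0.0466, Col8a1 to Ociad2 at 0.0523 and Ydjc at 0.0606, and Col12a1 to Dynlt3 at 0.0398 and Eef1g at 0.0404. Col16a1 lay nearest to Brinp1 at 0.0597 and Gnb4 at 0.0618. Col8a2 and Col23a1 had no neighbour as close, with Glycam1 at 0.145 and Efnb3 at 0.155 for Col8a2, and Efnb3 at 0.135 and C4b at 0.158 for Col23a1. These are also the chains with the fewest reads of the 9, at 159 to 1001 for Col8a2 and 54 to 380 for Col23a1. The part of counting noise in their differences was not tested.

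Most other collagens of the fibril-associated, transmembrane, multiplexin and related groups were under the filter. Of 17 listed, 16 were in the table and 3 passed the filter. Of these 3, none was higher and 2 were lower in day 1 than in control, with a median log2 fold change of -0.14, and in day 3 against control 1 was higher and 1 lower, with a median of 0.15. Of all genes tested, 62.1% were called in day 1 and 14.0% in day 3 against control. Col22a1, a fibril-associated chain, averaged 1.31 ± 0.205 FPKM in day 1, 1.94 ± 0.203 FPKM in day 3 and 2.68 ± 0.196 FPKM in control (SD, n = 3 each), and was 1.93-fold lower in day 1 (adjusted p = 4.2e-05) and 1.35-fold lower in day 3 (adjusted p = 0.0331) than in control. Col18a1, a basement membrane collagen, averaged 51.5 ± 1.07 FPKM in day 1, 69.2 ± 0.901 FPKM in day 3 and 58.5 ± 1.46 FPKM in control. It was 1.10-fold lower in day 1 (adjusted p = 0.000949) and 1.20-fold higher in day 3 (adjusted p = 0.000211) than in control.

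Binding partners and receptors of these collagens were mostly higher in day 1 than in control. Of 34 listed, 27 were tested, of which 20 were higher and 7 lower in day 1 than in control, with a median log2 fold change of 0.61. In day 3 against control, 13 were higher, 1 was lower and 13 were not called, with a median of 0.16, and in day 3 against day 1, 7 were higher, 19 lower and 1 not called. Over all genes tested, 32.4% were higher and 29.7% lower in day 1, and 7.68% and 6.3% in day 3 against control. In day 3 against day 1, 26.6% of all genes were higher and 29.4% lower. Tnc, which codes for the glycoprotein tenascin-C, averaged 157 ± 3.43 FPKM in day 1 and 44.3 ± 1.53 FPKM in control (SD, n = 3 each), 3.63-fold higher (adjusted p = 8.84e-10). Fbn1, coding for the microfibril protein fibrillin-1, was 2.76-fold higher in day 1 (adjusted p = 1.26e-08) and 1.36-fold higher in day 3 (adjusted p = 0.000674) than in control. Matn3, coding for matrilin-3, was 2.59-fold higher in day 1 (adjusted p = 3.86e-05). It had 58 to 164 reads a library and averaged 2.10 FPKM in day 1, 0.693 FPKM in day 3 and 0.773 FPKM in control. Matn3 thus passed the filter of 1 FPKM only through its day 1 level, which favoured its place among the rises.

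The 3 genes of this list with the largest falls in day 1 were Dcn, Matn4 and Lum, while Bgn, which codes for biglycan, a proteoglycan related to decorin, was 2.24-fold higher (adjusted p = 1.3e-07) and is named here after its value was seen. Dcn, coding for decorin, a proteoglycan that binds collagen VI and fibrils, averaged 9.01 ± 1.50 FPKM in day 1, 52.5 ± 2.89 FPKM in day 3 and 45.1 ± 1.85 FPKM in control. It was 4.86-fold lower in day 1 than in control (adjusted p = 2.41e-08), and in day 3 its log2 fold change was 0.24 (adjusted p = 0.138). Matn4 was 3.05-fold lower in day 1 (adjusted p = 5.4e-07) and 1.92-fold lower in day 3 (adjusted p = 0.000445) than in control. Lum, coding for lumican, was 1.52-fold lower in day 1 (adjusted p = 0.000174) and 1.52-fold higher in day 3 (adjusted p = 0.00177). Fn1, coding for fibronectin, averaged 393 ± 40.2 FPKM in day 3 and 292 ± 8.58 FPKM in control, 1.36-fold higher (adjusted p = 0.000879).

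The receptors that follow were named after their values were seen. Itgb1, the integrin subunit shared by collagen receptors, was 2.26-fold higher in day 1 than in control (adjusted p = 1.21e-08), and Cspg4, whose product NG2 binds collagen VI, was 2.37-fold higher (adjusted p = 3.98e-08). Of the anthrax toxin receptors, which bind collagen VI, Antxr2 was 1.41-fold higher (adjusted p = 9.76e-06) and Antxr1 1.15-fold higher (adjusted p = 0.00048) in day 1. The collagen receptor genes Ddr1 and Lair1 were 1.11-fold (adjusted p = 0.00376) and 1.31-fold lower (adjusted p = 0.0142) in day 1 than in control. Ddr2, the other gene of the Ddr pair, was 1.55-fold higher (adjusted p = 1.18e-06). In day 3 against control, Itgb1 was 1.20-fold higher (adjusted p = 0.00343), and Cspg4, Antxr2, Antxr1, Ddr1, Ddr2 and Lair1 were not called, with adjusted p of 0.0559 to 0.788.

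Genes for collagen modification, folding, export and processing were mostly higher in day 1. Of 31 listed, 30 were tested, with 25 higher, 3 lower and 2 not called in day 1 against control (median log2 fold change 0.37), and 11 higher, none lower and 19 not called in day 3 against control (median 0.10). The day 3 count was 5 higher with FPKM as deposited and 7 with quantile normalization. In day 3 against day 1, 3 were higher, 23 lower and 4 not called. Beside these counts, 32.4% of all genes tested were higher and 29.7% lower in day 1 against control. The shares were 7.68% and 6.3% in day 3 against control, and 26.6% and 29.4% in day 3 against day 1. Tll1, which codes for a procollagen C-proteinase, was 2.75-fold higher in day 1 (adjusted p = 6.38e-08) and 1.32-fold higher in day 3 (adjusted p = 0.00417) than in control. Creb3l1, coding for a transcription factor that activates collagen secretion genes, was 2.29-fold higher in day 1 (adjusted p = 1.72e-08) and 1.28-fold higher in day 3 (adjusted p = 0.000946).

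Plod2 averaged 90.0 ± 1.54 FPKM in day 1, 53.7 ± 2.97 FPKM in day 3 and 44.2 ± 0.308 FPKM in control, 2.10-fold higher in day 1 (adjusted p = 6.62e-09) and 1.23-fold higher in day 3 (adjusted p = 0.000592). The 3 genes that fell in day 1 were Tgm2, coding for the crosslinking enzyme transglutaminase 2, at 1.91-fold lower (adjusted p = 7.06e-07), the prolyl 4-hydroxylase gene P4ha3 at 1.30-fold lower (adjusted p = 3.76e-06) and the prolyl 3-hydroxylase gene P3h2 at 1.12-fold lower (adjusted p = 0.00106).

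**Figure D5:**
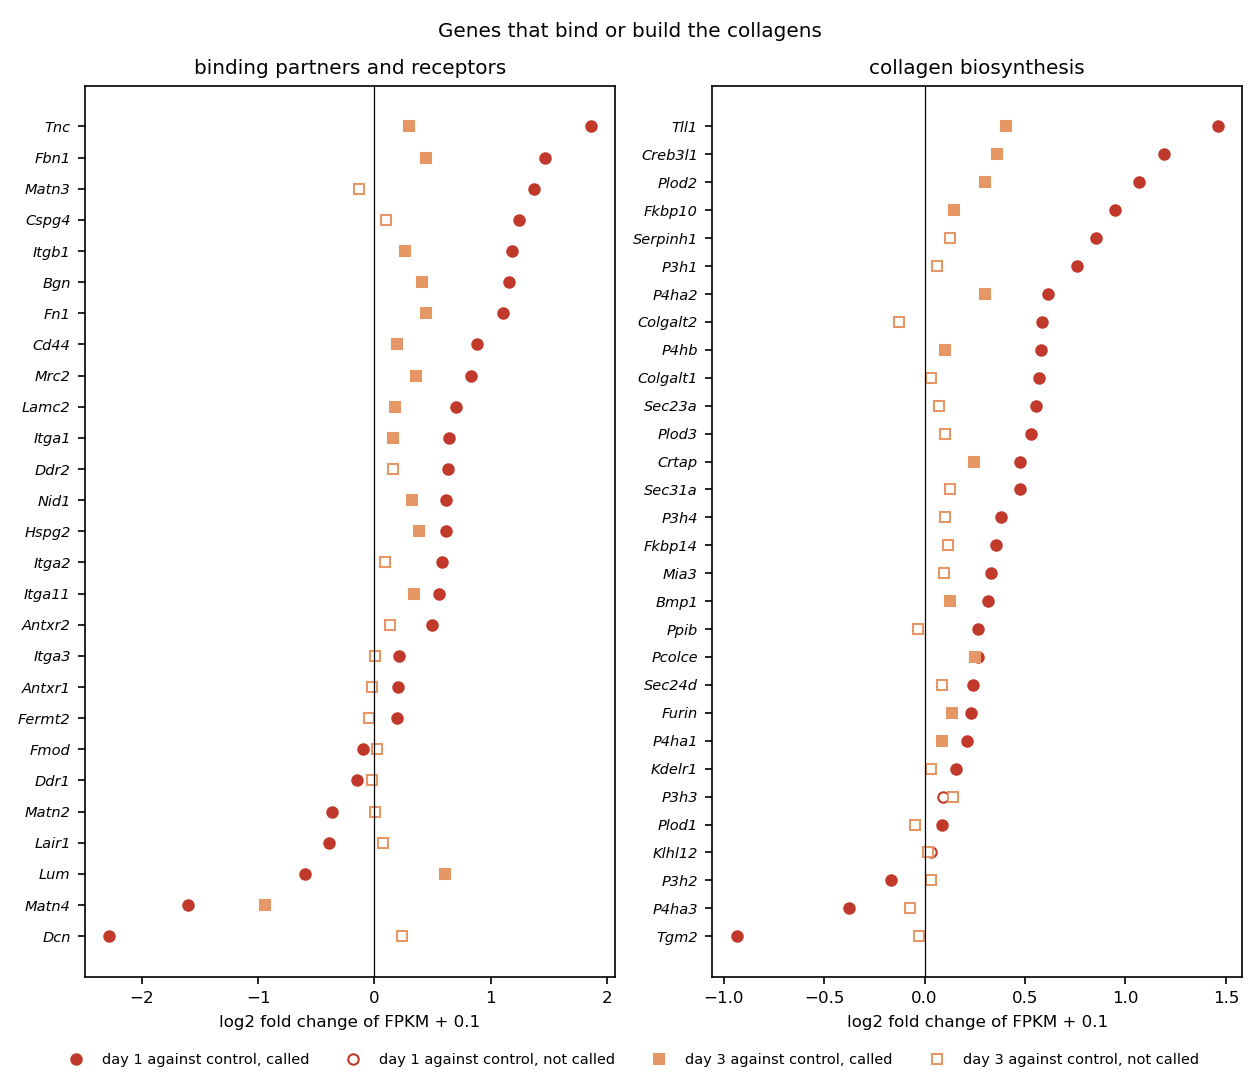
Log2 fold change of FPKM + 0.1 for each tested binding partner or receptor (left) and each tested biosynthesis gene (right), in day 1 against control (circles) and day 3 against control (squares), filled where the gene passed the test. On the left, 20 circles are filled to the right of 0 and 7 to the left. On the right, 25 are filled to the right and 3 to the left, and most squares lie close to 0.

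Markers of other cell types also moved between the groups, and their part in the changes of the collagen chains was not tested. The counts below stand beside 32.4% of all genes tested higher and 29.7% lower in day 1 against control. In day 3 against control these shares were 7.68% and 6.3%. The lists overlap: Dcn and Lum are also binding partners above, Col15a1 is also a related collagen, and Pdgfra is in the fibroblast and the oligodendrocyte lineage lists. Of 7 tested genes of a mural and smooth muscle list of 12, 5 were higher and 1 lower in day 1 than in control, and 1 was higher and 2 lower in day 3. The list's summed level was 2208 to 2284 FPKM in day 1, 1119 to 1212 FPKM in day 3 and 1208 to 1308 FPKM in control libraries, most of it from the contractile genes Acta2 and Tagln, while the pericyte markers Abcc9 and Higd1b were under 0.1 FPKM in every library. Of the list's other tested genes, Pdgfrb averaged 31.5 FPKM in day 1 and 19.3 FPKM in control, and Notch3 16.8 and 12.2 FPKM. Pdgfrb, Notch3 and Cnn1 were 1.67-fold, 1.41-fold and 1.54-fold higher in day 1 than in control. Vtn was 4.30-fold lower and Rgs5 was not called there. Of 9 tested fibroblast markers of 14, 5 were higher and 3 lower in day 1, and 5 were higher and 1 lower in day 3, with sums of 282 to 288 FPKM in day 1, 292 to 307 FPKM in day 3 and 267 to 273 FPKM in control. The day 3 count of fibroblast markers was 3 higher with FPKM as deposited and 4 with quantile normalization.

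Of 11 tested astrocyte markers, 3 were higher and 7 lower in day 1, and none was higher and 4 lower in day 3, with sums of 2335 to 2624 FPKM in day 1, 2906 to 2942 FPKM in day 3 and 3159 to 3236 FPKM in control. The day 1 count of astrocyte markers was 2 higher and 7 lower with FPKM as deposited, and 1 higher and 6 lower with quantile normalization. Of 12 tested microglial markers of 13, 1 was higher and 11 lower in day 1 and none was called in day 3, with sums of 142 to 156, 272 to 345 and 326 to 354 FPKM in day 1, day 3 and control. All 10 tested oligodendrocyte lineage markers of 12 were lower in day 1 and 8 were lower in day 3, with sums of 417 to 452, 549 to 581 and 654 to 684 FPKM in the same order. All 5 tested ependymal markers of 6 were lower in day 1 and none was called in day 3, with sums of 75.7 to 85.1 FPKM in day 1, 117 to 134 FPKM in day 3 and 130 to 143 FPKM in control.

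Of 8 neuronal markers 3 were tested, all higher in day 1 and 2 in day 3, with sums of 109 to 112 FPKM in day 1, 109 to 110 FPKM in day 3 and 102 to 103 FPKM in control, and Rbfox3 was under 0.1 FPKM in every library. With FPKM as deposited 1 of the 3 was higher in day 1 and 1 in day 3, and with quantile normalization 1 in day 1 and 2 in day 3. Of 7 endothelial markers 1 was tested, Cdh5, not called in day 1 and higher in day 3, with sums of 12.8 to 13.7 FPKM in day 1, 14.9 to 16.1 FPKM in day 3 and 12.8 to 13.8 FPKM in control, and Cldn5 was under 0.1 FPKM throughout.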

How the data were processed

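Libraries came from RNA of primary mouse cortical astrocytes made with a poly(A) kit, per the labels' protocols. The deposited table holds FPKM, computed by the authors for each library. Tools named in the submitters' processing notes are STAR 2.7.3a, cutadapt 2.6, FastQC 0.12.1 and DESeq2, and builds are GRCm38 and mm10, without role or order. Not given in the sources used here are the counting program, the annotation, the use of strand and any filter. Without strand, reads of overlapping genes cannot be told apart.

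Read depth was recovered from the values. Multiplied by a whole-number gene length and library total, the FPKM of all 20350 genes above 0, of 25239 listed, came out as whole reads within a tolerance of 0.01, and the reads summed to 99.9% of the totals. The smallest length that fitted was taken for each gene, although a whole multiple of it would also fit. The chi-square per degree of freedom between replicates was 1.75 to 4.76, so none was a duplicate.

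Libraries were brought to a common scale by median-of-ratios factors (0.971 to 1.02). The 12611 genes averaging 1 FPKM or more were taken as log2(FPKM + 0.1) and fitted by limma 3.58.1 in R 4.3.3 on all 9 libraries with group as the only term and an intensity trend. P-values are two-sided and Benjamini-Hochberg adjusted over all genes tested, with calls under 0.05, and intervals are at 95%. The procedure was tested on simulated data. Ratios were compared with exact permutation tests in Python 3.11.15, and figures drawn with matplotlib 3.10.9. Alternatives changed the pseudocount, filter, scaling, libraries, threshold, variance prior and kind of values.

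The members, the lists and the tests were chosen with earlier results of these data known. Named were all 9 members, up to 3 called genes with the largest rise and up to 3 with the largest fall per related list and comparison with control, and the 2 nearest tested genes of each member, of which 1 is not reported here.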

Additional observations from a re-analysis of the deposited data

Results flagged for a closer look

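For each of the 9 chains, the change against control differed between the days, tested as the difference of both effects within limma. Because both effects use the same control libraries, this difference equals the log2 fold change of day 3 against day 1. The change in day 3 minus that in day 1 was -0.75 for Col6a1, -0.79 for Col6a2, -1.49 for Col6a3, -1.40 for Col7a1, -0.54 for Col8a1, 1.11 for Col8a2, -0.50 for Col12a1, -0.27 for Col16a1 and 1.18 for Col23a1. The same test called 56.0% of all genes. For Col16a1 the effect was larger in day 3 (-0.29) than in day 1 (-0.02), while for the other 8 chains it was smaller in day 3.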

How the results depend on the processing

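Of 588 recomputed values of the members in 3 comparisons, 579 kept their direction and their side of the threshold. Col16a1 in day 1 against control, which was not called, changed sign without control replicate 3 (0.0086) and without day 1 replicate 1 (0.014), within -0.058 to 0.014 over all 9 fits that each left out 1 library. In day 3 against control, Col12a1 and Col23a1 were called in the alternatives given in the report, and Col6a1, Col6a2, Col8a2 and Col16a1 were not called at an adjusted p under 0.001, which left 3 chains higher and 0 lower. A mean of at least 5 FPKM as filter removed Col8a2 and Col23a1, which left 0 chains lower in day 1 and 1 lower in day 3 against control, and 0 higher in day 3 against day 1. Over all genes, an adjusted p under 0.001 called 4339 in day 1 and 210 in day 3 against control and 3426 in day 3 against day 1, and one under 0.01 called 754 in day 3 against control. Leaving out 1 library gave 7279 to 7821 calls in day 1 against control, 6399 to 7046 in day 3 against day 1, and 1039 to 1769 in day 3 against control, where 1762 were called with all 9 (1170 without control replicate 1, 1042 without day 3 replicate 1 and 1039 without day 3 replicate 3). In that comparison 5 to 6 members were higher when 1 library was left out. Of its calls, 54.9% were higher, against 43.4% with FPKM as deposited, and no scaling changed a member's call. No pairing by replicate number was seen: deviations of same-numbered libraries correlated at -0.079 to 0.111, and 4 of 9 libraries matched their own number best. With 3 libraries a group, this cannot exclude that same-numbered libraries share a culture or preparation. With the replicate block, 7954, 1813 and 7156 genes were called in day 1 against control, day 3 against control and day 3 against day 1, and no member's call changed. Col23a1, at 54 to 380 reads, is the chain most limited by depth.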

Other observations

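Among the related collagens under the filter, further collagen VI chain genes were near 0. Col6a6 was at 0 in every day 1 library and at no more than 0.0088 FPKM elsewhere, Col6a4 averaged 0.0480 FPKM in day 1, 0.0415 FPKM in day 3 and 0.0357 FPKM in control, and Col6a5 averaged 0.0879, 0.0911 and 0.0914 FPKM in the same groups. The fibril-associated chain gene Col14a1 had 0.632 to 0.745 FPKM in day 1, 0.742 to 0.974 FPKM in day 3 and 1.15 to 1.21 FPKM in control libraries. Col26a1 averaged 0.747 ± 0.174 FPKM in day 1, 0.726 ± 0.126 FPKM in day 3 and 1.30 ± 0.0532 FPKM in control (SD, n = 3 each). Col28a1, at 9 to 30 reads a library, averaged 0.223 ± 0.0509 FPKM in day 1, 0.128 ± 0.0118 FPKM in day 3 and 0.0788 ± 0.0171 FPKM in control. These genes were not tested.

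The start windows also differed in CpG content. The windows of Col8a2, Col16a1 and Col23a1 held 32, 24 and 24 CpG dinucleotides, those of Col7a1 and Col8a1 12 each, those of Col6a2 16 and 6, and those of Col6a1 and Col6a3 3 each, beside a median of 7 over all windows. No test was made.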
